A study of Mus musculus with 38 samples.

Results

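Mediator is the multi-subunit coactivator that links transcription factors bound at enhancers and promoters to RNA polymerase II. Med12 belongs to its kinase module, together with Cdk8 or Cdk19, cyclin C and Med13. In early T cell development, Notch ligands of the thymic stroma switch lymphoid progenitors towards the T lineage, and RUNX1, which binds DNA with its partner Cbfb, takes part in this program. CTCF is a DNA-binding protein known for its role in chromatin loops, and p300 is a histone acetyltransferase that marks active enhancers. The data described here ask where Med12 sat on chromatin before and after the first Notch signal.

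Med12 occupancy was measured by ChIP-seq in lymphoid progenitors (LP) and in Notch-stimulated progenitors (Phase 1). The members are all peaks of the LP Med12 list (30020) and of the Phase 1 Med12 list (39132), out of 38 samples and 17 peak lists in the whole series. Peaks without as much as 1 bp of overlap with the other list are termed LP-specific or Phase 1-specific sites, and the rest are shared. Both groups are Cas9-LP cells. This line was grown out of fetal liver and is Ebf1-deficient with a Rosa26-Cas9 knock-in, so all cells lacked Ebf1, a B lineage factor, and carried Cas9. LP cells were kept on OP9 stroma, and Phase 1 cells were moved to OP9-DLL4, stroma that displays the Notch ligand DLL4, for 2 days; SCF, Flt3L and IL-7 were present in the culture. Each list combines 2 replicate libraries. The lists for RUNX1, p300, CTCF and the Notch1 intracellular domain (Notch1-IC, also for the later Phase 2) came from the same line. A further pair of Med12 lists came from Phase 1 cells with a guide RNA against luciferase (sgCont, 19053 peaks) or against Cbfb (sgCbfb, 18099 peaks). The deposited lists hold no per-library values, so the spread between cultures is unknown. The intervals and tests below treat sites as units and cover counting error only. With 1 list per stage, a difference between stages cannot be told apart from a difference between libraries.

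The sequences of 5 sites show examples of the strings counted further on. Each is the central 200 bp of a peak outside promoters, from RefSeq's GRCm38.p6 (mm10), plus strand, with the matched letters in capitals. Distances are from the nearest gene start of the deposited annotation and are negative upstream; strings were searched on both strands, so a capital run may be the reverse complement of the letters named. By odds ratio between the specific classes, the CTCF consensus leaned most to LP-specific sites and the AP-1 string (TGACTCA or TGAGTCA) most to Phase 1-specific sites. The sites were picked for holding the string, which most sites of either class lack: the consensus was at 5.70% of LP-specific and AP-1 at 18.6% of Phase 1-specific sites. The LP-specific sites printed had within-list score ranks of 63.4 and 61.4 (of 100), while the highest-scored LP-specific sites outside promoters, near Arid1a and Hmga1 (ranks 99.6 and 99.5), held no CTCF consensus. The Arid1a site still overlapped an LP CTCF peak, and the Hmga1 site did not.

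The LP-specific site 9.86 kb downstream of the start of Stmn1 (a microtubule regulator), intergenic at chr4:134478078-134478277, score 68.2, with a CTCF match and an E-box (CACCTG):
Stmn1: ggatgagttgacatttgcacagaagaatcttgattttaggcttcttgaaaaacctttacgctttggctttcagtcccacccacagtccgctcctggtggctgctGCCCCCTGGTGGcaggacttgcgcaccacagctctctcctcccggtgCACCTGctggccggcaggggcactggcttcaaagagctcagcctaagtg
The LP-specific site at -3.68 kb from H2-Ob (an MHC class II gene), intergenic at chr17:34235128-34235327, score 64.9, again with a CTCF match and an E-box (CAGGTG):
H2-Ob: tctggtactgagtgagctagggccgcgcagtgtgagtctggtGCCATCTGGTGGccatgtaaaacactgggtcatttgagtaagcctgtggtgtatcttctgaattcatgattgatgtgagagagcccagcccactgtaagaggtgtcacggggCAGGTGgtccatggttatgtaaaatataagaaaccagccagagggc
The Phase 1-specific site at -3.94 kb from Zfp36 (an mRNA decay factor), in an intron of Gm44710 in GENCODE, at chr7:28383067-28383266, score 238.9, with a GATA string (TTATCT) and an AP-1 string:
Zfp36: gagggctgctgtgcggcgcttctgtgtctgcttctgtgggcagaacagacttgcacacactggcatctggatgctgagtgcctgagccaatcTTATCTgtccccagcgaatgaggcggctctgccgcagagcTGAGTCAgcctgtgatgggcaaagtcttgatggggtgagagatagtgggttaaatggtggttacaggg
The Phase 1-specific site assigned to 1700019E08Rik, intergenic at chr2:46371075-46371274, score 228.1, with an E-box and an AP-1 string:
1700019E08Rik: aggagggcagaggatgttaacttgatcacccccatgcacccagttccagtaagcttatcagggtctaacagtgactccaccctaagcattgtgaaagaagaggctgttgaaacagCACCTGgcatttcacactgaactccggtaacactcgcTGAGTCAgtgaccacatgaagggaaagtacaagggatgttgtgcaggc
The Phase 1-specific site assigned to Gse1, in an intron of Gse1 in GENCODE and intergenic in the deposited annotation, at chr8:120371873-120372072, score 350.9, with a GATA string on either strand and no AP-1 string:
Gse1: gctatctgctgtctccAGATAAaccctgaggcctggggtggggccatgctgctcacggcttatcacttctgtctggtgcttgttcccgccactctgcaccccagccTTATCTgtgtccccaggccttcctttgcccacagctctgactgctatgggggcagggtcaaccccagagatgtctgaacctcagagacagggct

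LP-specific sites numbered 5849, which is 19.5% of the LP list (Wilson 95% interval 19.0 to 19.9%). Phase 1-specific sites numbered 14961, or 38.2% of the Phase 1 list (37.8 to 38.7%). These shares are also the background for every count of members below. The Phase 1 list was 1.30 times as long as the LP list, and Phase 1-specific sites were 2.56 times as many as LP-specific ones. When the 30020 highest-scored peaks were taken from either list, 8236 sites were specific to each. Shared peaks were equally many in both lists, so lists of equal length leave equal numbers of specific sites by construction. That run therefore cannot show whether the excess in number holds.

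Low scores prevailed among the sites found in 1 stage. The HOMER peak score had a median of 25 at LP-specific sites and of 59.4 at shared sites of the LP list, and of 24.5 and 57.7 in the Phase 1 list. On the rank of the score within its own list (0 to 100, lowest to highest), the medians were 21.02 for LP-specific and 26.3 for Phase 1-specific sites, against 58.0 and 65.7 for shared sites. With each list cut into 10 score classes, 51.9% of the lowest LP class were LP-specific and 1.499% of the highest. In the Phase 1 list the share went from 78.7% to 4.60%. A score of 30 or more was reached by 2121 LP-specific and 5269 Phase 1-specific sites.

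**Figure D1:**
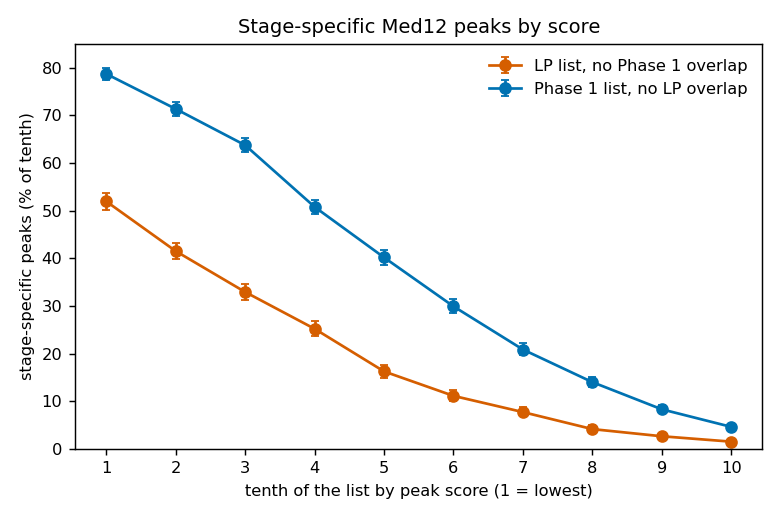
Share of peaks without overlap in the other stage's Med12 list (y axis, percent) in each of 10 classes of a list by peak score (x axis, 1 is lowest), for LP (orange) and Phase 1 (blue), with Wilson 95% intervals. The shares drop at every step, from 51.9% to 1.499% in LP and from 78.7% to 4.60% in Phase 1.

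The highest-scored LP-specific sites lay beside a Phase 1 peak rather than far from one. The leading 5 were an intergenic site at -57.5 kb from Arid1a, a chromatin remodeler subunit (score 402.1), the promoter of Eif1, a translation initiation factor (395.8), a site at -1.16 kb from Hmga1, a chromatin architectural protein (393.7), and the promoters of Tpm3, a tropomyosin (372.6), and Mbd3, a NuRD subunit (316.9). Their centres were between 0.561 and 0.763 kb from the centre of a Phase 1 Med12 peak, and 4 of them, all but Hmga1, overlapped a peak of the sgCont Phase 1 list. Of the 45 LP-specific sites in the highest of the 10 score classes, 62.2% (47.6 to 74.9%) had a Phase 1 peak centred within 1 kb. Of all LP-specific sites 8.91% did.

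Phase 1-specific sites as a whole were less often in that position. Their highest-scored sites were the Arid1a promoter (score 449, with an LP peak 0.735 kb away), a site by the olfactory receptor gene Olfr646 (399.7, nearest LP peak 65.9 kb away), the Gse1 site shown above (350.9, 1.83 kb), a site at -5.06 kb from Mir142, a hematopoietic microRNA (350.7, 2.12 kb), and the promoter of Calr, an endoplasmic reticulum chaperone (339, 0.81 kb). Of the 180 in the highest score class, 24.4% (18.7 to 31.2%) had an LP peak within 1 kb, and of all Phase 1-specific sites 4.87% did. The median distance to the nearest peak of the other stage was 7.18 kb for LP-specific and 13.7 kb for Phase 1-specific sites. At promoters the order was the other way, with a peak within 1 kb at 19.8% of Phase 1-specific and 15.8% of LP-specific sites. LP-specific sites were set against the longer list, and its part in these differences was not tested. The highest-scored shared sites of the LP list were near Pisd-ps3, Dad1 and Rfx1, and those of the Phase 1 list near Pisd-ps3, Cenpu and Pisd-ps1; both Pisd-ps genes are pseudogene copies, so reads there are uncertain in placement.

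Promoter sites were mostly shared, and stage-specific sites lay in introns and between genes. By HOMER annotation 33.5% of shared sites were at promoters (peaks called promoter-TSS), against 13.1% of LP-specific and 5.31% of Phase 1-specific sites. The odds of a promoter were 2.68 times higher at LP-specific than at Phase 1-specific sites (95% interval 2.42 to 2.98; two-sided Fisher's exact test, adjusted p = 5.67e-74 over the 13 tests made). Introns held 43.2% of LP-specific and 46.3% of Phase 1-specific sites, and intergenic sequence 35.3% and 44.0%. Read the other way, 8.64% of promoter peaks in LP and 8.93% in Phase 1 were stage-specific, while outside promoters the shares were 24.0% and 46.8%. In the full lists, the shares thus differed between the stages away from promoters and were close at promoters. With Med12 lists of equal length, promoters were 11.9% of the 8236 LP-specific and 6.18% of the 8236 Phase 1-specific sites. More LP-specific than Phase 1-specific sites were then at promoters, so the place of the asymmetry depended on list length.

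Phase 1-specific sites lay farther from genes than LP-specific ones. Outside promoters the median distance to the nearest start was 25.6 kb (quartiles 9.95 and 59.9 kb) at Phase 1-specific sites, 17.1 kb (7.49 and 39.5 kb) at LP-specific sites and 19.8 kb at shared sites. More than 100 kb from any start were 13.01% of Phase 1-specific sites (12.48 to 13.6%) and 6.26% of LP-specific sites (5.67 to 6.91%). Repeats differed in kind: SINE elements carried 4.75% of LP-specific, 3.82% of Phase 1-specific and 2.11% of shared sites, LINE elements 2.39%, 4.89% and 2.14%, and LTR elements 6.65%, 9.41% and 6.70%.

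Among the factors taken from the stage of the Med12 site, CTCF had the largest odds ratio between the classes. A CTCF peak of the same stage overlapped 33.1% of LP-specific sites (31.9 to 34.4%), 21.3% of shared sites and 6.43% of Phase 1-specific sites (6.05 to 6.83%), an odds ratio of 7.21 between the specific classes (6.62 to 7.85; Fisher's exact test). CTCF itself was in place in both stages at 1775 LP-specific sites, or 30.3%. Of the 1938 LP-specific sites with an LP CTCF peak, 12.8% were promoters, close to the 13.2% among those without, and their median score rank was 21.2 against 21.02.

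RUNX1 and p300 covered most stage-specific sites of both kinds, in the stage where Med12 was found. RUNX1 overlapped 71.9% of LP-specific and 66.9% of Phase 1-specific sites (odds ratio 1.27, 1.19 to 1.36; Fisher's exact test, adjusted p = 1.93e-12). With Med12 lists of equal length the RUNX1 comparison turned round, to 74.1% and 82.5% (odds ratio 0.606). The order of the classes for RUNX1 thus depended on the length of the Med12 lists. The RUNX1 lists (31995 peaks in LP, 38399 in Phase 1) and p300 lists (36182 and 49116) were not cut, and the part of their lengths was not tested. p300 overlapped 82.7% of LP-specific and 86.6% of Phase 1-specific sites (odds ratio 0.738, 0.680 to 0.801; Fisher's exact test, adjusted p = 1.32e-12). Both factors together were at 65.4% of LP-specific, 60.8% of Phase 1-specific and 93.0% of shared sites. p300 without RUNX1 was at 25.8% of Phase 1-specific and 17.3% of LP-specific sites.

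In the other stage, where no Med12 peak was listed, these factors were found at part of the sites. Phase 1 RUNX1 and Phase 1 p300 peaks overlapped 28.9% and 31.2% of LP-specific sites. LP RUNX1 and LP p300 overlapped 14.3% and 19.6% of Phase 1-specific sites. RUNX1 or p300 of the other stage was present at 44.4% of LP-specific sites (43.1 to 45.7%) and 24.8% of Phase 1-specific sites (24.1 to 25.4%). Outside promoters, RUNX1 of the other stage was at 25.4% of LP-specific and 13.7% of Phase 1-specific sites, and p300 at 28.8% and 18.7%. LP-specific sites were here set against the longer Phase 1 lists of RUNX1 and p300, and the part of list length in this gap was not tested.

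Notch1-IC, the part of the Notch receptor that enters the nucleus, was listed at few Med12 sites. Its Phase 1 and Phase 2 lists were themselves short, which limits how many sites they can overlap. The Phase 1 Notch1-IC list (152 peaks) overlapped 24 Phase 1-specific, 107 shared and 1 LP-specific site, and the Phase 2 list (352 peaks) 96, 174 and 1. The LP list of the same antibody, from cells without the ligand, was longer (1585 peaks). It overlapped 33 Phase 1-specific, 1381 shared and 32 LP-specific sites (0.221%, 5.71% and 0.547% of the classes).

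**Figure D2:**
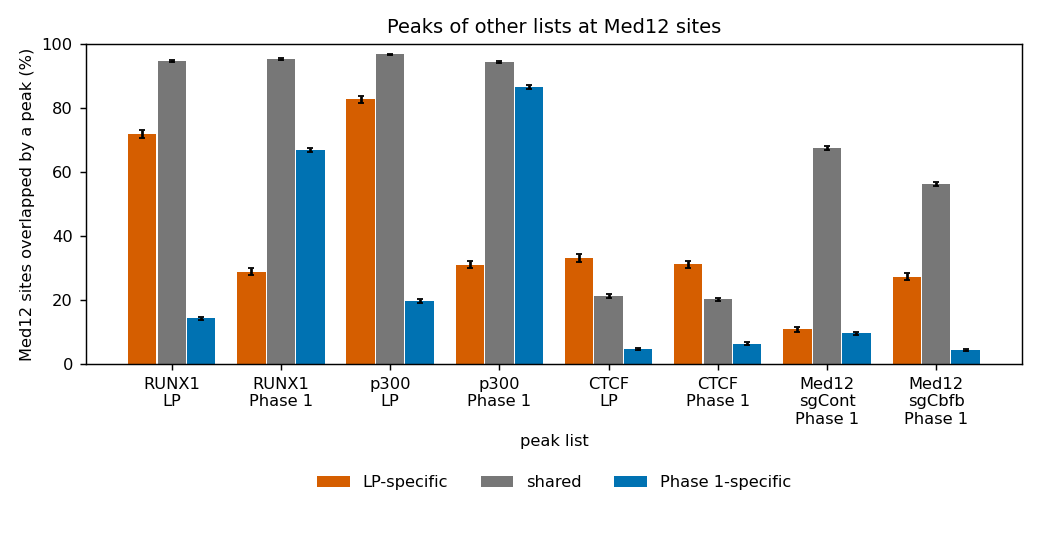
Percent of LP-specific (orange), shared (grey, LP coordinates) and Phase 1-specific (blue) Med12 sites overlapped by at least 1 bp by a peak of each list on the x axis, with Wilson 95% intervals. RUNX1 and p300 follow the stage of the Med12 site, CTCF is at 33.1% and 31.2% of LP-specific sites in LP and Phase 1, and the sgCont Med12 list holds 10.9% and 9.71% of the specific classes.

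The DNA under the sites also differed. Within 200 bp around the peak centre, on both strands, the CTCF consensus was found at 5.70% of LP-specific and 0.308% of Phase 1-specific sites (odds ratio 19.6, 14.4 to 26.7; Fisher's exact test, adjusted p = 2.62e-133), against 0.786% of shared sites. In windows of the same length 2 kb to either side the share was 0.205% around LP-specific and 0.140% around Phase 1-specific sites. Among LP-specific sites with a CTCF peak 17.0% held the consensus, and among those without 0.102%. An E-box (CAGCTG or CAGGTG), bound by E proteins such as those of Tcf3 and Tcf12, was found at 38.0% of LP-specific and 28.1% of Phase 1-specific sites (flanks 24.0% and 21.7%; odds ratio 1.56, Fisher's exact test, adjusted p = 3.94e-42). The E-box letters lie within some CTCF matches, but every E-box match was inside one at no more than 1.62% of the LP-specific sites with an E-box.

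Phase 1-specific sites held more strings of RUNX, AP-1, GATA, RBPJ and TCF/LEF. The AP-1 string was found at 18.6% of Phase 1-specific, 5.42% of LP-specific and 6.17% of shared sites (flanks 3.65%, 3.71% and 3.59%; odds ratio of LP-specific to Phase 1-specific 0.251, 0.222 to 0.283, Fisher's exact test, adjusted p = 1.39e-148). It was more frequent at Phase 1-specific sites without a RUNX1 peak (23.4%) than with one (16.2%), and with a p300 peak (20.4%) than without (6.89%). The RUNX string (TGTGGTT or TGCGGTT) was at 25.6% of Phase 1-specific and 13.8% of LP-specific sites (flanks 5.39% and 6.01%; odds ratio 0.463, Fisher's exact test, adjusted p = 6.38e-81). Shared sites lay between, at 20.0%.

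The GATA string (AGATAA) was found at 14.1% of Phase 1-specific sites, above its flanks (11.3%), and at 5.70% of LP-specific and 6.21% of shared sites, below theirs (9.95% and 10.7%). The RBPJ string (GTGGGAA), the site of the DNA-binding partner of Notch1-IC, was at 6.60% of Phase 1-specific sites (flanks 4.06%) and 3.37% of LP-specific sites (flanks 4.35%). The TCF/LEF string (ATCAAAG) was at 3.64% (flanks 3.21%) and 1.66% (flanks 3.27%). Their odds ratios of LP-specific to Phase 1-specific were 0.368, 0.494 and 0.446, with adjusted p of 4.01e-72, 5.41e-21 and 7.04e-15 by Fisher's exact test. The PU.1 string (GAGGAAGT), of the myeloid and progenitor factor encoded by Spi1, was at 7.75% and 6.69% (odds ratio 1.17, Fisher's exact test, adjusted p = 0.0084), and at 10.1% of shared sites. The median GC content of the windows was 51.5% at LP-specific, 54% at shared and 48% at Phase 1-specific sites, and its part in these shares was not tested. A match is a run of letters, not a shown binding site.

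**Figure D3:**
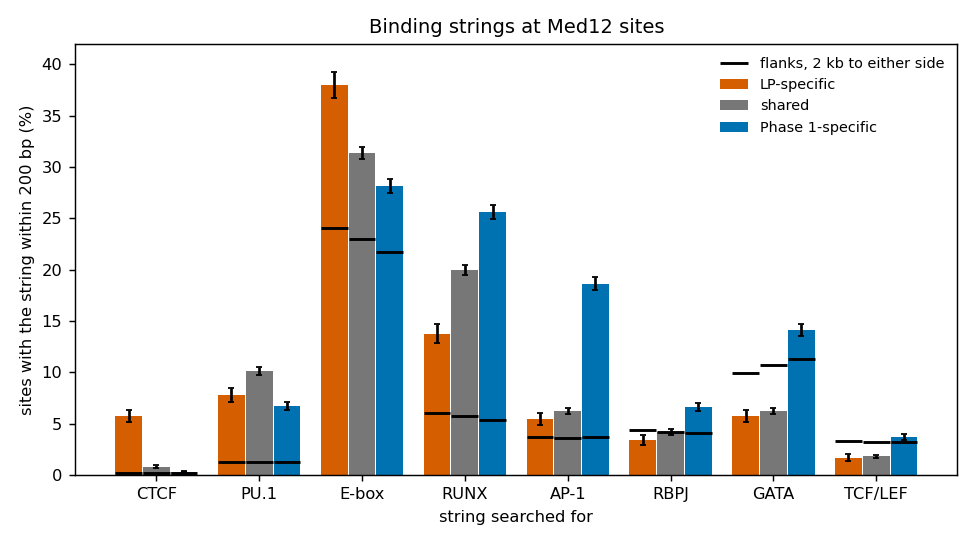
Percent of sites with each string within 200 bp of the peak centre (bars with Wilson 95% intervals) for LP-specific (orange), shared (grey) and Phase 1-specific (blue) sites; black lines give the share in windows 2 kb to either side. The CTCF consensus stands above its flanks mainly in LP-specific sites (5.70%), and AP-1 in Phase 1-specific sites (18.6%).

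The sgCont list is a second measurement of Med12 in Phase 1, and it held similar shares of both specific classes. It overlapped 9.71% of Phase 1-specific sites (9.25 to 10.2%) and 10.9% of LP-specific sites (10.1 to 11.7%), which were by definition absent from the first Phase 1 list (odds ratio of LP-specific to Phase 1-specific 1.14, 1.03 to 1.25; Fisher's exact test, adjusted p = 0.0119). Of shared sites it overlapped 67.6%. Outside promoters the order was the other way, 8.87% of Phase 1-specific and 6.65% of LP-specific sites, and at promoters 24.7% and 39.1%. Of the sites with a score of 30 or more, 24.4% of both classes were found. When all lists were held to a score of 30 and the classes made anew, the shares were 8.50% of LP-specific and 6.03% of Phase 1-specific sites (odds ratio 1.45). With lists of equal length the share was 16.8% for Phase 1-specific and 11.05% for LP-specific sites (odds ratio 0.616), so the direction depends on how the lists are made. Recovery followed the score: from the lowest to the highest of 5 rank classes it went from 0.941% to 68.7% for Phase 1-specific and from 2.10% to 57.3% for LP-specific sites. The sgCont list is also shorter, and its cells carried a guide vector.

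Seen from the sgCont list, 85.5% of its 19053 peaks overlapped both Med12 lists, 7.69% the Phase 1 list only and 3.60% the LP list only. The 686 peaks of the last kind are Phase 1 peaks at sites that the first Phase 1 list lacks.

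Shared sites differed in rank between the stages. Across the 24171 shared pairs the rank in LP and in Phase 1 had a Spearman correlation of 0.765, across sites of 1 list pair. By rank within the whole lists, 15.02% of pairs ranked more than 25 points higher in Phase 1, and 4.24% of these were promoters. The 3.35% that ranked more than 25 points lower held 11.1% promoters, against 39.8% among the rest. Such ranks shift with the longer Phase 1 list, whose many low-scored sites lift the shared ones. Ranked among the shared sites alone, which are equally many in both stages, 10.4% ranked more than 25 points higher (3.27% promoters) and 7.59% lower (30.5% promoters), so the excess of higher ranks shrank. The sites named next kept differences of more than 79 points in that ranking. The largest increases in rank were at an intergenic site 45.3 kb from the start of Rap2b, a Ras-related GTPase (score 16.4 in LP and 188.3 in Phase 1), an intronic site of Nck2, an adaptor protein (17.3 and 220.9), and an intergenic site 22.1 kb from Cxcr4, the chemokine receptor of progenitors and thymocytes (17.1 and 160.1). The largest drops in rank were at the promoter of Tpm2, a tropomyosin (169.2 in LP and 18.3 in Phase 1), an intron of Mtmr12, a phosphatase relative (126.8 and 16.8), and an intergenic site near Lpar1, a lysophosphatidic acid receptor (160.9 and 19.6). Scores of different lists are on scales that may differ.

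Phase 1-specific sites formed more clusters in the full lists. Joining neighbouring centres, with 12499 bp as the widest gap joined, gave 520 clusters of 3 or more Phase 1-specific sites, with 11.8% of that class, and 100 clusters of LP-specific sites, with 5.37%. With equal lists the numbers were 159 and 202, so the order of the classes turned round at equal list length. The largest Phase 1-specific clusters held 8 sites over 46.6 kb at Iqsec1, an Arf exchange factor, 8 over 43.9 kb at Slc44a3, a choline transporter relative, and 7 over 32.0 kb at Snai1 and Ube2v1. The Iqsec1 and Slc44a3 clusters held no shared site. The largest LP-specific clusters held 6 sites over 39.1 kb at Crybb3 and 2900026A02Rik, 4 over 23.1 kb at 5830418P13Rik and Bfsp2, and 4 over 22.2 kb at Jag2, which encodes a Notch ligand, and Nudt14.

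By nearest gene, 15587 genes had a Med12 site. Each site counts only for its nearest gene, here and in the lists below. A gene said to have no site may therefore have sites near or within it that are assigned to a neighbour. More Phase 1-specific than LP-specific sites were counted at 6448 of them (41.4%, called gained), and fewer at 2222 (14.3%, called lost). Any difference in count, however small, suffices for either call, and a gene called lost may keep shared or Phase 1-specific sites. Among the 2642 genes with 5 or more sites these shares were 68.4% and 16.3%. With equal lists, which fix equal numbers of specific sites, 3647 genes were gained and 3860 lost. Counts per gene are therefore read against these backgrounds.

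Angpt1, a ligand of the receptor Tie2, had 18 Phase 1-specific sites and no other Med12 site. Of these, 13 were intronic, 4 intergenic and 1 was at the promoter, their scores ran from 16.4 to 155 with a median of 36.7, and 16 overlapped a Phase 1 p300 peak and 10 a RUNX1 peak. None of the 18 overlapped an LP RUNX1 peak and 1 overlapped an LP p300 peak. In the sgCont list 3 of the 18 were found, the strongest site (score 155, in an intron 239 kb from the start) among them.

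Maf, a bZIP transcription factor of T cell subsets, had 18 Phase 1-specific, 6 shared and no LP-specific sites. The 18 lay at a median of 233 kb and up to 528 kb from the start, and none was at the promoter. Here 17 overlapped p300 and 14 RUNX1 in Phase 1, and 4 were in the sgCont list. Nfatc2, a calcium-regulated transcription factor of T cells, had 18 Phase 1-specific sites, 2 LP-specific and 5 shared, with scores no higher than 64.4. Tns3, a focal adhesion protein, had 19 Phase 1-specific, 3 LP-specific and 13 shared sites. The next by excess were Gm20125, Asap1 (an Arf GTPase-activating protein), Frmd4a, Sox6 (a transcription factor), Rybp (a Polycomb complex member) and Rad51b (a recombination protein), with 12 to 17 Phase 1-specific and 0 to 5 LP-specific sites each.

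Losses were smaller. G530011O06Rik had 5 LP-specific sites and no Phase 1-specific site, but 3 of them lay on chromosome X and 2 on Y near the sequence that X and Y share, so their placement is uncertain. At Ldhal6b, 8 sites were found in LP alone and 3 in Phase 1 alone, and at Ajap1 5 and 0. Bfsp2, a lens filament gene, had 4 LP-specific sites, all with RUNX1 and p300 in LP and with p300 in Phase 1 as well. The gene 2900026A02Rik had 6 and 2.

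**Figure D4:**
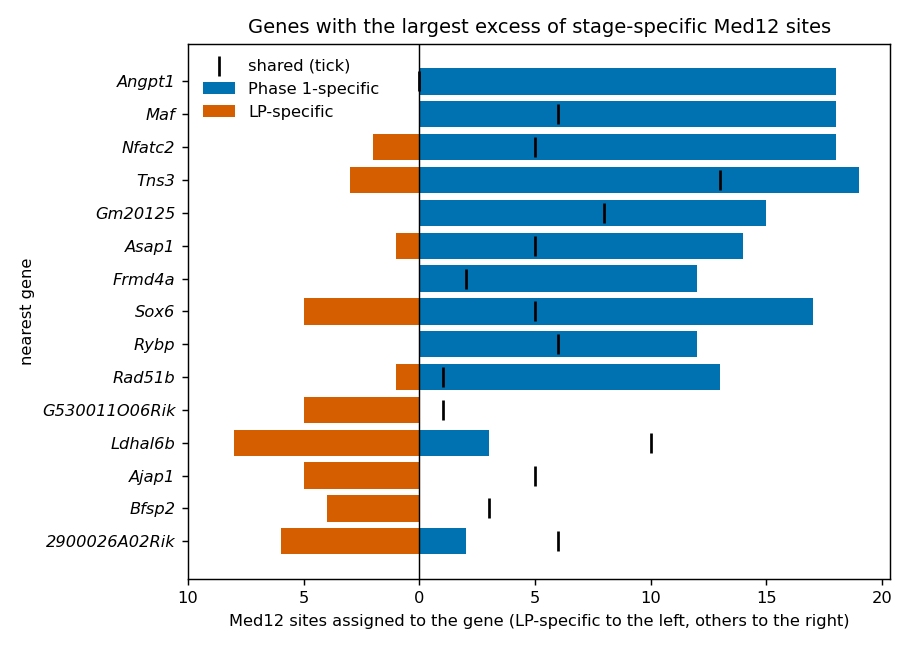
Med12 sites by nearest gene for the 10 genes with the largest excess of Phase 1-specific sites and the 5 with the largest excess of LP-specific sites; blue bars to the right are Phase 1-specific, orange bars to the left LP-specific, ticks shared sites. Angpt1 has 18 Phase 1-specific sites and no shared site, and Ldhal6b has the longest orange bar with 8.

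The share of genes gained grows with the number of sites, and most lists hold genes with more sites than the median of 2, so list counts are set beside both backgrounds, 41.4% of all genes and 68.4% of genes with 5 or more sites. Of the list genes with 5 or more sites, gained were 4 of 5 in the Notch list, 8 of 12 T lineage factors, 5 of 9 T cell receptor genes, 6 of 9 stem and progenitor factors and 3 of 4 progenitor receptors. For the other lists these were 2 of 4 myeloid, 3 of 4 B lineage, 2 of 4 NK and innate lymphoid and 3 of 5 Mediator genes. These shares are near the second background or rest on few genes, so nothing particular to a list is read from its count. Of 14 Notch pathway genes and targets, 11 were gained and 1, Notch3, was lost, with 2 LP-specific, 1 Phase 1-specific and 1 shared site. The paper describes recruitment of Med12 to intron 1 of Notch3 in Phase 1. Dtx1, a Notch target that acts in the pathway, had 4 Phase 1-specific sites and no other. Rbpj had 5 Phase 1-specific and 5 shared sites, and Hes1, a repressor and direct target, had 3 Phase 1-specific sites, with scores from 15.4 to 178.2, and 6 shared ones. Il2ra, which encodes CD25, the interleukin 2 receptor chain used as a marker of early T cell progenitors, had 4 Phase 1-specific, 1 LP-specific and 4 shared sites.

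Among 14 T lineage transcription factors 10 were gained and 1, Runx3, was lost, with 3 LP-specific, 2 Phase 1-specific and 17 shared sites. Gata3, which drives the early T program, had 12 Phase 1-specific sites, 1 LP-specific and 4 shared. These 12 lay up to 320 kb from the start, 6 of them in 1 cluster of 23.6 kb, and all 12 overlapped RUNX1 and 11 p300 in Phase 1, 3 of the 12 having RUNX1 in LP. Of the 12 sites 8 held the RUNX string. Tox, a thymocyte HMG-box factor, also had 12 Phase 1-specific and 1 LP-specific site, and Lef1, a Wnt pathway factor, 11 and 2. Tcf12, which encodes the E protein HEB, had 6 and 0.

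Of 22 T cell receptor complex and signaling genes with a site, 10 were gained and 4 (Cd5, Cd4, Cd2 and Fyn) were lost. Cd8a had no Med12 site by nearest gene. Themis, a thymocyte signaling protein, had 7 Phase 1-specific sites and no LP-specific one, and Prkcq, a kinase of T cell receptor signaling, 7 and 1. Thy1 and Cd3e had 3 and 0 each.

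The progenitor lists gave counts of the same kind. Of 15 stem and progenitor transcription factors with a site 10 were gained and 1, Hhex, was lost (2 LP-specific, 1 Phase 1-specific and 2 shared sites). Hoxa9, Tal1 and Mecom had no Med12 site by nearest gene. Mef2c, a lymphoid progenitor factor, had 8 Phase 1-specific and 1 LP-specific site, Erg had 5 and 0, Runx2 had 7 and 5, and Bcl11a 3 and 2. Of 10 progenitor receptors and surface proteins with a site 8 were gained and none was lost, and Ly6a and Procr had no site. Kit, the SCF receptor, and Cd93 had 5 Phase 1-specific sites each, with 0 and 1 LP-specific sites, and Csf2rb had 3 and 0.

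The lists of other lineages follow. Of 16 myeloid genes with a site 7 were gained and 1, Irf8, was lost. Irf8, a factor of myeloid and dendritic cells, had 7 LP-specific, 5 Phase 1-specific and 9 shared sites. Klf4 had 7 Phase 1-specific sites, from -582 to -32.1 kb from its start, and no LP-specific site. Cd33 had 2 Phase 1-specific and 0 LP-specific sites, and Itgam 1 and 0. Csf3r and Ctsg had no site. Of 16 B lineage genes 6 were gained and 3 (Pax5, Cr2 and Foxo1) were lost, with Bank1 (4 and 0), Blk and Pou2af1 (3 and 0 each) and, in the other direction, Foxo1 (1 Phase 1-specific and 3 LP-specific sites); Cd79a and Vpreb1 had none. Of 13 NK and innate lymphoid genes 6 were gained and 3 (Il2rb, Il18rap and Ifng) lost, led by Zbtb16 (5 Phase 1-specific and 1 LP-specific site), Gzmb and Tbx21 (2 and 0 each), with Ifng in the other direction (1 and 2); Eomes had none. Of 29 Mediator subunit genes 10 were gained and 7 lost. Med13l, a kinase module subunit, had 13 Phase 1-specific and 3 LP-specific sites, Med30 had 5 and 0, Med13 had 4 and 1, Med4 had 2 and 0, and Med12 itself had 1 shared site; Med9, Med19, Med20 and Med22 had none.

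Distances at the loci below are from the GENCODE gene start. The counts cover all sites within 50 kb of the gene, including sites whose nearest gene is a neighbour. Within 50 kb of Il2ra (chr2:11642807-11693193, plus strand) there were 5 Phase 1-specific sites, 1 LP-specific and 5 shared sites. Of the 5, 1 was at the promoter of Il15ra. All 5 overlapped RUNX1 and p300 in Phase 1, none overlapped RUNX1 in LP, and 4 were also in the sgCont list. The site at -19.5 kb had a score of 291.1, a within-list rank of 99.3, and overlapped a Notch1-IC peak of Phase 1 or Phase 2. A neighbouring shared site at -5.55 kb scored 76.2 in LP and 200.3 in Phase 1. The LP-specific site, in an intron 21.4 kb downstream, scored 20.4 and overlapped RUNX1, p300 and CTCF in LP.

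Dtx1 (chr5:120680202-120711927, minus strand) had 5 Phase 1-specific sites within 50 kb, of which 3 were in the sgCont list. The pair of intronic sites 26.1 and 23.3 kb downstream of the start scored 241 and 109.4, and both overlapped Notch1-IC. An LP-specific site lay at the end of the gene (score 27.5). Bcl11b, the T lineage commitment factor (chr12:107910403-108003602, minus strand), had 5 Phase 1-specific and no LP-specific site. They scored from 16.3 to 68.6, the strongest in an intron 77.3 kb from the start, all with RUNX1 and p300 in Phase 1. At Cd3e, of the T cell receptor complex (chr9:44998740-45009627, minus strand), 3 of the 4 Phase 1-specific sites sat within 2 kb of the start, at 0.382, -0.86 and -1.96 kb, with scores of 46.4, 24.1 and 40.6. The first and the last of them overlapped Notch1-IC, and none of the 3 was in the sgCont list.

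At the progenitor genes, Kit (chr5:75574916-75656722, plus strand) had 3 Phase 1-specific sites from its start to 7.19 kb downstream, with scores of 34.5, 40.2 and 22.3. All had RUNX1 and p300 in Phase 1, and 2 were in the sgCont list. Flt3, the receptor of Flt3L (chr5:147330741-147400489, minus strand), had 7 shared sites, with LP scores from 70.6 to 557, 4 Phase 1-specific sites and 1 LP-specific site. The Phase 1-specific sites upstream of its start were nearest to Pan3. The shared intronic site with the LP score of 557 scored 255.2 in Phase 1. Meis1, a stem cell factor, had 1 shared intronic site, scored 46 in LP and 160.3 in Phase 1, and 1 Phase 1-specific site (27.9).

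At the myeloid genes, the window of Spi1 (chr2:91082390-91115756, plus strand) had 6 shared sites and 1 Phase 1-specific site (score 25.5). By nearest gene, 1 of the shared sites was assigned to Spi1, and the rest to Rapsn, Psmc3, Slc39a13 or Mybpc3. The shared site 0.68 kb downstream of the GENCODE start of Spi1, in an intron there, scored 180.8 in LP and 163.4 in Phase 1. In the deposited annotation that site is intergenic and nearest to Slc39a13. The deposited annotation places the Spi1 promoter at the shared site 14.3 kb downstream of the GENCODE start, which scored 83.1 in LP and 32.3 in Phase 1. Csf1r had 3 shared and 4 Phase 1-specific sites, which scored from 18.4 to 29.5 and were not in the sgCont list. Irf8 (chr8:120736358-120756694, plus strand) was alone among the 10 loci in having more LP-specific than Phase 1-specific sites, with 6 LP-specific, 2 Phase 1-specific and 7 shared sites. The 6 scored from 19 to 41.5, and 4 of them formed a cluster from 4.4 to 24.1 kb downstream of the start, running past the end of the gene. All 6 overlapped p300 and 5 overlapped RUNX1 in LP, and none was in the sgCont list.

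**Figure D5:**
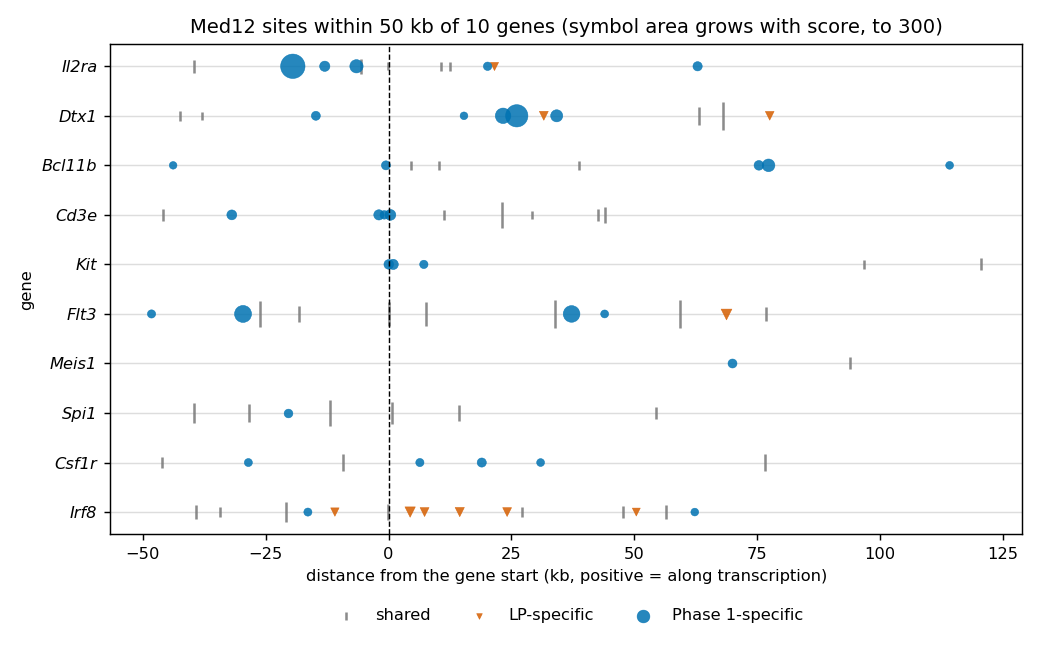
Med12 sites within 50 kb of 10 genes by distance from the gene start in kb (x axis, positive along transcription); circles are Phase 1-specific, triangles LP-specific and ticks shared sites, and symbol area grows with the score up to 300. Blue circles cluster upstream of Il2ra and inside Dtx1, and Irf8 alone shows a run of LP-specific triangles.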

How the data were processed

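Per the labels and methods, the authors aligned reads to mm10 with Bowtie 1.1.1, called peaks with HOMER in factor style against a matched control, and kept peaks reproducible between 2 replicates by HOMER's adaptation of IDR. The deposited lists hold the HOMER peak score, a unit-free score of at least 15, and the distance to the nearest start in bp, from HOMER's annotation. Library totals are not in these lists, so depth is unknown. Symbols came from the nearest promoter accession through RefSeq's gene table for GRCm38.p6, which matched 99.8% of the 44981 sites; 86 had no symbol. No peak passed a chromosome end of GRCm38, and 10 peaks of each Med12 list, on other sequences, were not searched for strings. Gene spans and the features at named sites are from GENCODE M21.

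Overlaps of at least 1 bp, Wilson intervals and 13 planned two-sided Fisher's exact tests with Benjamini-Hochberg adjustment were computed in Python 3.11.15 with scipy 1.17.1, and checked on simulated peaks. Alternatives were a score of 30, stricter or looser overlap, equal list lengths and Mantel-Haenszel odds over 5 classes of score rank. Others left promoters out, allowed 1 mismatch in the CTCF consensus, or used other windows and joining distances. Named sites and genes are those with the highest scores, the largest excess of sites or the largest change of rank, up to 4 genes of each list by the difference of its specific sites, list genes without a site, and 10 loci. In addition, genes called lost in a list were named after their values were seen. The printed sequences are from the highest-scored sites outside promoters with the string of the largest odds ratio of its class, and from 1 without it, windows that touch an untranslated region being passed over. Some items that these rules select are not reported here. The members, lists and tests were chosen with earlier results of these data known.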

Additional observations from a re-analysis of the deposited data

Results flagged for a closer look

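The sgCbfb Med12 list, from Phase 1 cells in which Cbfb was targeted, enters no test of the report. It overlapped 27.4% of LP-specific sites (26.3 to 28.6%), above the 10.9% (10.1 to 11.7%) of its control, the sgCont list, which is of similar length. Of Phase 1-specific sites it overlapped 4.56%, against 9.71% for sgCont, and of shared sites 56.3%, against 67.6%. Outside promoters the shares of LP-specific sites were 24.2% for sgCbfb and 6.65% for sgCont. Of the sgCbfb peaks 12.2% overlapped neither Med12 list, against 3.24% of the sgCont peaks. The paper states that ChIP-seq of Cbfb-deficient cells was done with few cells and was noisier than usual. Each list is 1 pair of combined replicates, so the difference was not tested against the spread between cultures.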

How the results depend on the processing

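No paired analysis was possible because each deposited list combines its replicates, and leaving out a replicate was likewise not possible. The tests of promoters, p300, CTCF peaks and all 8 strings kept their direction and their side of the threshold in every alternative run. The odds ratio ranged from 5.51 to 7.66 for CTCF peaks and from 0.235 to 0.267 for AP-1. For the CTCF consensus it ranged from 8.07, with 1 mismatch allowed, to 43.9, in a 100 bp window. In the run with equal list lengths only the 2 Med12 lists were cut, and the other lists were kept whole. The RUNX1 odds ratio was then 0.606 and that of recovery in the sgCont list 0.616, both reversed. Phase 1-specific sites numbered 8236, which the equal lengths tie to the number of LP-specific sites. Clusters of 3 or more were 202 (LP-specific) and 159 (Phase 1-specific), and genes gained 3647 and lost 3860. Recovery was also reversed without promoters (0.900, adjusted p = 0.0665 by Fisher's exact test) and not past the threshold with centres within 1 kb (1.06, adjusted p = 0.319); over its 7 alternatives the odds ratio ran from 0.602 to 1.73. With a score of at least 30, Phase 1-specific sites numbered 7643, clusters 49 and 158, and genes gained 4060. Joining at 5 kb gave 11 LP-specific and 94 Phase 1-specific clusters, and joining at 25 kb gave 252 and 1100. Of the alternatives chosen after seeing the data, leaving LP-specific sites of the sgCont list out changed none of 12 calls, and equal lists with centres within 1 kb gave 0.569 for RUNX1 and 0.602 for recovery. With ranks among shared sites only, also chosen after seeing the data, 2511 sites in place of 3630 ranked more than 25 points higher in Phase 1 and 1834 in place of 810 lower. The cause of the reversals was not tested beyond the length of the Med12 lists. Depth is unknown, so a site missing from a list may lie below its threshold rather than be unoccupied.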
